A study of Mus musculus with 8 samples.

Results

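The genes described here are 10 genes of the circadian clock and its output: Nr1d1, Nr1d2, Ciart, Dbp, Tef, Per1, Per2 and Per3, called the output arm, and Arntl and Nfil3, called the opposite arm. They were picked by platform gene symbol from 16593 named genes, and 17 of the 25697 probes in the value table carried one of these symbols. The genes and their division into arms were chosen with values of all 8 arrays in view, so every level and difference of the 10 genes below is a description and supports no claim of its own. The tumours were whole melanomas of C57BL/6 mice carrying BrafCA and Tyr::CreER, an inducible Cre driven by the melanocyte promoter of Tyr, so that 4-hydroxytamoxifen applied to newborn skin activates oncogenic Braf in melanocytes. SA mice had the Ifnar1SA allele, whose type I interferon receptor chain is known to resist degradation, and WT mice were Ifnar1+/+. SA tumours were taken 20, 38 or 60 days after tamoxifen and WT tumours at day 38, with 2 arrays in each of these 4 groups. The labels state neither the hour of day at which a tumour was taken nor whether replicate tumours are from different mice, and a p-value here can reflect no more than the spread of the arrays at hand.

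The circadian clock is a feedback loop of transcription that runs in nearly every mammalian cell, including the cells of skin. CLOCK and BMAL1, the product of Arntl, form a dimer that binds E-boxes and switches on the Per genes, the Cry genes, Nr1d1, Nr1d2, Ciart, Dbp and Tef. The PER, CRY and CIART proteins hold that dimer back, while the nuclear receptors REV-ERBα and REV-ERBβ, the products of Nr1d1 and Nr1d2, repress Arntl and Nfil3 through sites called ROREs. DBP and TEF activate genes through the D-box, and NFIL3 represses through the same site. In tissues that keep time, Arntl and Nfil3 are known to peak at the opposite phase of the day from Nr1d1 and Dbp.

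Promoter windows from RefSeq, build GRCm38.p6, which run from 250 bases before to 50 bases after an annotated start, matched 9 of the 10 genes with 12 windows; Per2 had no entry. Both strands were searched for the E-box CACGTG, the D-box as TTATGTAA or TTACGTAA, and the RORE consensus, and no matches of different motifs overlapped. An E-box stood in 4 of the 12 windows, those of Ciart, Per1 and Tef, beside 7.15% of all 32851 windows in the table. A D-box stood in 1 window, that of Per3, beside 1.06% of all windows, and the RORE consensus in 1 window, that of Arntl, beside 0.384%. These 5 windows are shown because each holds a motif through which the loop just described is known to act; the capitals mark the matches. Ciart has 3 E-boxes, which begin at positions −116, −58 and −44 from the start.
Ciart, chr3:95882179-95882478, minus strand: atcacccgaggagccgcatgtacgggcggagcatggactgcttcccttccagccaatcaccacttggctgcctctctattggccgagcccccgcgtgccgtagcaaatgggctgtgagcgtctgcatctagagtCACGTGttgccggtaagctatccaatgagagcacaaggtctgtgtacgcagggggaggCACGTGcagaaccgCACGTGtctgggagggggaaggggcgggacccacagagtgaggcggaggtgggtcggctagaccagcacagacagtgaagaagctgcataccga
Per1 and Tef have 1 E-box in the windows shown, which begins at −166 from the start of Per1 and at −127 from that of Tef.
Per1, first start, chr11:69098699-69098998, plus strand: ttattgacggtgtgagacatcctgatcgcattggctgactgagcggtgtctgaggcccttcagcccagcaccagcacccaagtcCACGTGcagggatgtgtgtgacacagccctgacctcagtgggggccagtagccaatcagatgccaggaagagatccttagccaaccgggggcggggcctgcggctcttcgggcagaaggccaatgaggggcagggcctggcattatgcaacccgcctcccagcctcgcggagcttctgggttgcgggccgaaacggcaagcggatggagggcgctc
Tef, first start, chr15:81802423-81802722, plus strand: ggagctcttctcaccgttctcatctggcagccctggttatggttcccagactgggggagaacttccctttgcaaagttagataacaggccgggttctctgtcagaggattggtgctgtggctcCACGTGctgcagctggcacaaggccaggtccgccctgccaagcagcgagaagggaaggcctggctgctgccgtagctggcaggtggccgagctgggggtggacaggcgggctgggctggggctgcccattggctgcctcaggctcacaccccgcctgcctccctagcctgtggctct
Per3 has 2 D-boxes, which begin at −205 and −158 from the start.
Per3, chr4:151044616-151044915, minus strand: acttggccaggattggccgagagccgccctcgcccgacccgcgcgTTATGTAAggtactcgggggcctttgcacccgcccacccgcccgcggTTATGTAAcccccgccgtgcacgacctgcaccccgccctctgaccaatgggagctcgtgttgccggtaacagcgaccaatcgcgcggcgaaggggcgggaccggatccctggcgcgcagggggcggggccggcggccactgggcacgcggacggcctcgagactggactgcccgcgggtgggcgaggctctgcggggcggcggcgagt
Arntl has the RORE at bases 27 to 37 after its second start.
Arntl, second start, chr7:113207261-113207560, plus strand: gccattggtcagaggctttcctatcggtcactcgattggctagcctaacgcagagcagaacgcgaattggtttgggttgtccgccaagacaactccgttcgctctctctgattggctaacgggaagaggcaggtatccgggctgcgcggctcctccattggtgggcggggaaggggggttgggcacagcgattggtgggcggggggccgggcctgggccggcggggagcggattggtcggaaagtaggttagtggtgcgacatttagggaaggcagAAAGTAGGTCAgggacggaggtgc
The second start of Tef has 1 E-box at −138. The windows of Nr1d1, Nr1d2, Dbp and Nfil3, the second start of Per1 and the first of Arntl held no match. A match is a description of letters, and these arrays measured no binding.

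**Figure D1:**
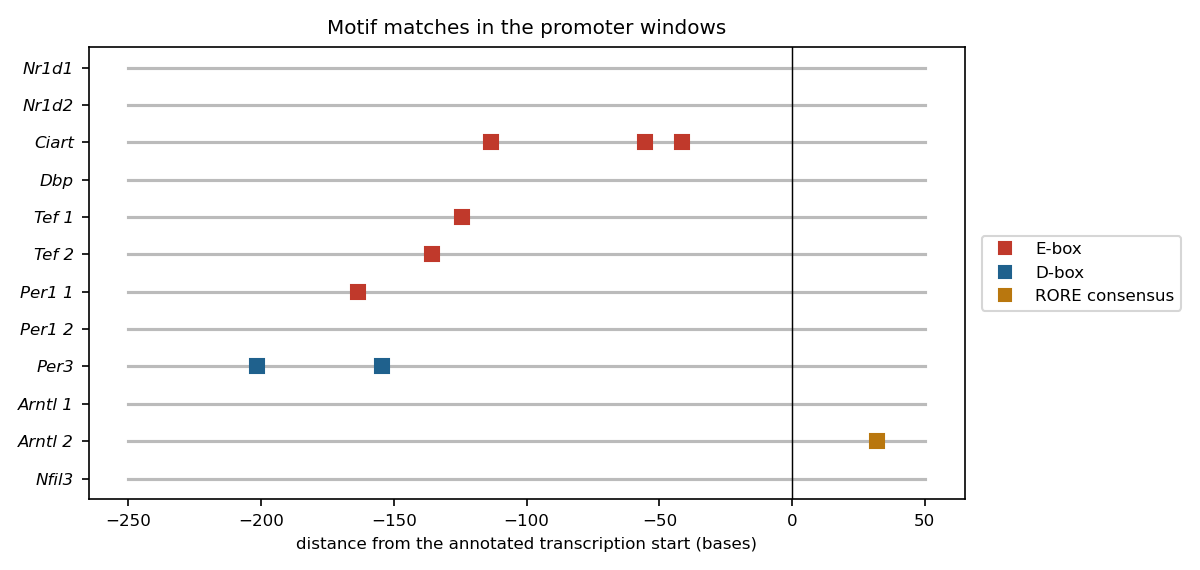
Positions of motif matches in the 12 promoter windows; the x axis is the distance in bases from the annotated transcription start, each line is 1 window and each square 1 match. Ciart holds 3 E-boxes and Per3 2 D-boxes, while 6 windows hold no match.

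All levels below are log2 intensities after background correction, on which 1 unit is a doubling apart from an offset that understates changes of dim probes. A gene entered the tests where a probe averaged over 7.24 (the 40th percentile over probes), and its brightest probe then stood for it, which left 11661 genes or unnamed probes. All 10 clock genes passed, through 15 of their 17 probes. On each of the 8 arrays the probe that stood for each of the 10 genes read above that level. In whole tumours, fewer cells of a type and less RNA per cell cannot be told apart.

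The arrays differed in tissue make-up and sex as well. Melanocyte markers, 10 of 12 listed genes past the filter, had summed intensities of 5844 and 107427 in the 2 SA tumours of day 20, 38258 to 52303 in SA at day 38, 110125 to 155097 in SA at day 60 and 10643 to 11839 in WT at day 38. The pair of day 20 was thus the least alike, and 9.82% of all genes differed over 2-fold between its arrays, beside 5.07% at day 38 and 4.92% at day 60 in SA and 1.37% in WT. Both SA tumours of day 38 had the female pattern, with Eif2s3y, on the Y chromosome, at 6.11 and 6.20 against 11.37 to 11.80 on the other 6 arrays, and with Xist at 9.69 and 9.20 against 6.84 to 7.56. Sex and the SA day 38 group therefore cannot be told apart in any comparison that holds that group.

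In SA tumours at day 38 the output arm read low and the opposite arm high. Dbp, Nr1d1, Nr1d2 and Ciart had their 2 lowest arrays of the 8 there, and Nfil3 its 2 highest. Tef, Per1, Per2 and Per3 had their lowest array in the second SA tumour of day 20 instead, and Arntl its highest. Both SA day 38 arrays lay below the other 6 in 4 of 8 output-arm genes, beside 4.97% of all genes, and above the other 6 in 1 of 2 opposite-arm genes, beside 3.37%. Without the second SA array of day 20 the counts against the other 5 arrays were 5 of 8 and 2 of 2, beside 6.41% and 4.25% of all genes. Without the first they were 4 of 8 and 1 of 2, beside 8.42% and 6.82%.

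Dbp, a PAR bZIP activator and the brightest gene of the output arm, read 13.88 and 11.96 in SA at day 20, 11.42 and 11.30 at day 38 and 13.56 and 13.22 at day 60, against 13.33 and 13.06 in WT at day 38. In the deposited linear values its group means were 2822 in SA and 9617 in WT at day 38. Both SA arrays of day 38 lay below all others, and the second array of day 20 came next, 1.92 below its partner. Tef, the related activator, read 11.87 and 10.98 in SA at day 20, 11.44 and 10.99 at day 38 and 12.04 and 12.10 at day 60, against 11.89 and 11.58 in WT. Its groups at day 38 did not overlap, although they lay close together. A second Tef probe lay near the background and went the other way, at 7.26 and 7.79 in SA against 7.05 and 6.75 in WT at day 38, so the direction for Tef holds for the brighter probe only.

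Nr1d1, which encodes REV-ERBα, had the widest range of the 10 genes. It read 10.60 and 10.47 in SA at day 20, 8.19 and 8.40 at day 38 and 11.15 and 10.54 at day 60, against 10.05 and 9.62 in WT at day 38. The range over the 8 arrays, 2.96, was wider than in 95.2% of all genes tested. Unlike Dbp, Nr1d1 read alike in both SA tumours of day 20. A second probe of Nr1d1 gave the same order of groups, at 9.41 and 9.59 in SA at day 20, 6.81 and 7.02 at day 38 and 9.98 and 9.58 at day 60, against 9.25 and 8.38 in WT. Nr1d2, which encodes REV-ERBβ, read 10.81 and 9.86 in SA at day 20, 9.73 and 9.53 at day 38 and 10.57 and 10.49 at day 60, against 10.72 and 10.75 in WT. Its day 38 groups lay far apart while its second array of day 20 lay just above those of SA at day 38. The other Nr1d2 probe lay below the filter and spanned 6.70 to 7.21.

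Ciart, a repressor of the CLOCK and BMAL1 dimer, read 10.14 and 9.84 in SA at day 20, 8.80 and 8.92 at day 38 and 10.01 and 9.86 at day 60, against 9.71 and 9.56 in WT at day 38. On this probe the replicates of each group kept close together, with the SA arrays of day 38 below the rest. On the second Ciart probe the SA arrays of day 38 read 8.81 and 8.58, against 9.73 and 9.31 in WT, again the 2 lowest of the 8. The day 20 pair parted on that probe, at 10.10 and 9.25, and its second array lay below both WT arrays.

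The 3 Per genes, whose products inhibit the dimer, set SA at day 38 less apart. Per1 read 12.17 and 11.33 in SA at day 20, 11.73 and 11.57 at day 38 and 12.34 and 12.32 at day 60, against 11.64 and 11.66 in WT at day 38. The SA and WT arrays of day 38 overlapped for Per1, and day 60 stood above both. On a second Per1 probe, SA read 10.12 on both arrays of day 38 against 10.25 and 10.42 in WT, so there the groups did not overlap. Per2 read 11.66 and 10.50 in SA at day 20, 12.12 and 12.02 at day 38 and 12.73 and 12.28 at day 60, against 12.17 and 12.48 in WT. Here day 20 was the low group and day 38 lay between it and the others, which no other output-arm gene showed. The second bright Per2 probe read 11.78 and 11.51 in SA against 11.60 and 12.02 in WT at day 38, so those groups overlapped on it, and the third probe, below the filter, spanned 6.65 to 7.58. Per3 read 8.68 and 7.74 in SA at day 20, 8.23 and 8.09 at day 38 and 8.15 and 8.61 at day 60, against 8.69 and 8.99 in WT. It was the dimmest of the 10 genes, and only WT stood clear of SA at day 38.

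Arntl, which encodes BMAL1, read 9.84 and 10.34 in SA at day 20, 10.16 and 10.27 at day 38 and 9.44 and 9.56 at day 60, against 9.59 and 9.55 in WT at day 38. The SA arrays of day 38 and the second of day 20 were its 3 highest. Nfil3, which encodes the D-box repressor, read 11.24 and 11.80 in SA at day 20, 12.26 and 12.72 at day 38 and 11.70 and 11.60 at day 60, against 11.16 and 11.45 in WT. Its deposited group means were 6024 in SA and 2741 in WT at day 38, with no overlap between the groups. Arntl, Nfil3, Dbp and Per3 had 1 probe each, so no second probe bears on them.

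**Figure D2:**
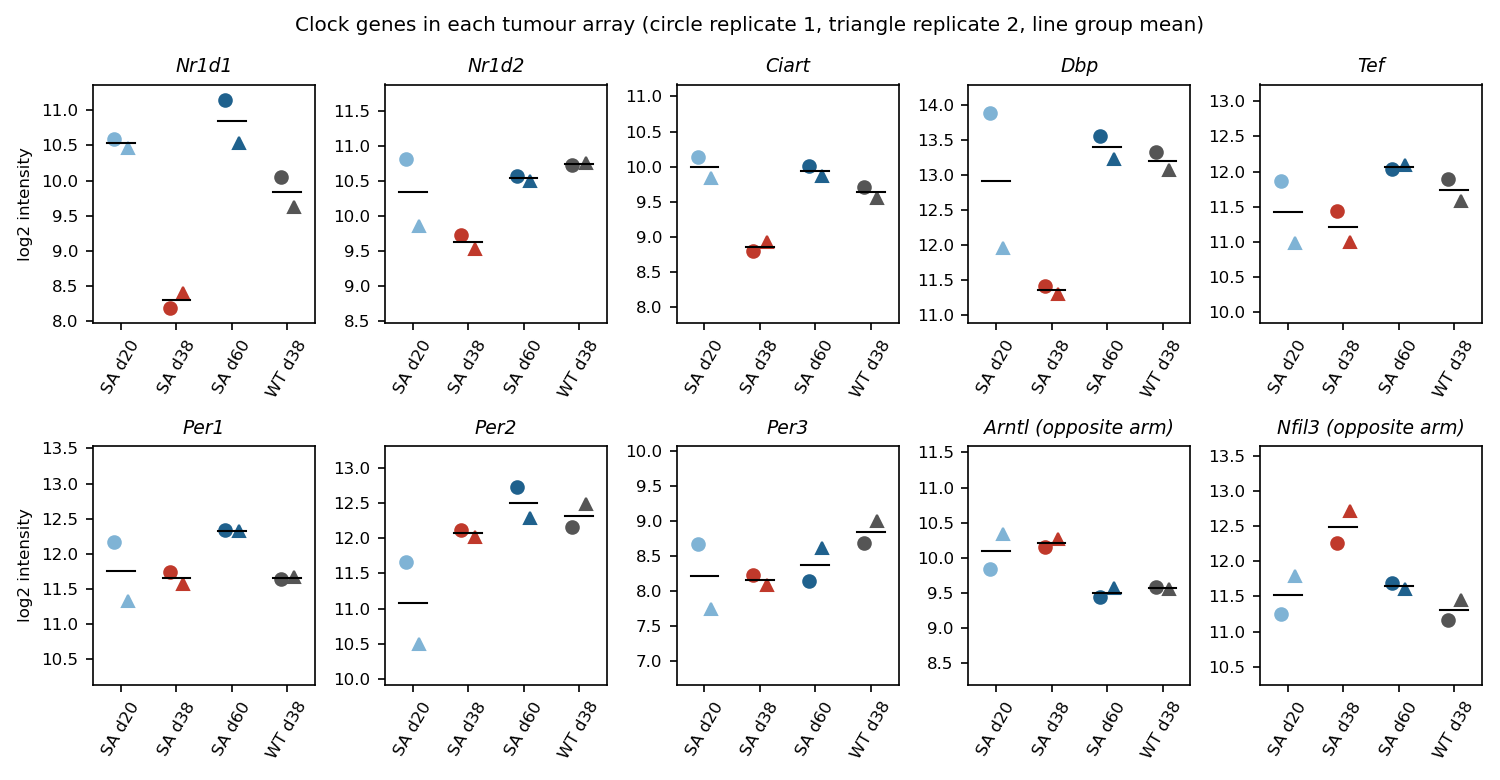
Log2 intensity (y axis) of the probe that stands for each of the 10 genes on the 8 arrays; circles are replicate 1, triangles replicate 2 and lines group means, each panel spanning the same number of log2 units. Dbp, Nr1d1, Nr1d2 and Ciart have their 2 lowest arrays in SA at day 38, and the second SA array of day 20 parts from the first in most panels.

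With each gene set to its own mean over the 8 arrays, the output arm averaged −0.59 and −0.69 on the SA arrays of day 38, 0.52 and 0.38 at day 60 and 0.23 and 0.17 in WT. At day 20 it averaged 0.43 on the first SA array and −0.46 on the second. The opposite arm averaged 0.41 and 0.70 in SA at day 38 and 0.27 on the second SA array of day 20. On the other 5 arrays it lay between −0.42 and −0.21. The 3 arrays low in the output arm were thus the 3 high in the opposite arm, and the split ran through the day 20 pair. Replicates at day 20 lay a median of 0.86 apart over the 10 genes, beside 0.27 over all genes. In the other groups the median gap over the 10 genes was 0.15 (SA at day 38), 0.13 (SA at day 60) and 0.28 (WT). Over all genes it was 0.24, 0.23 and 0.15 in that order, so in WT too the 10 genes lay further apart.

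**Figure D3:**
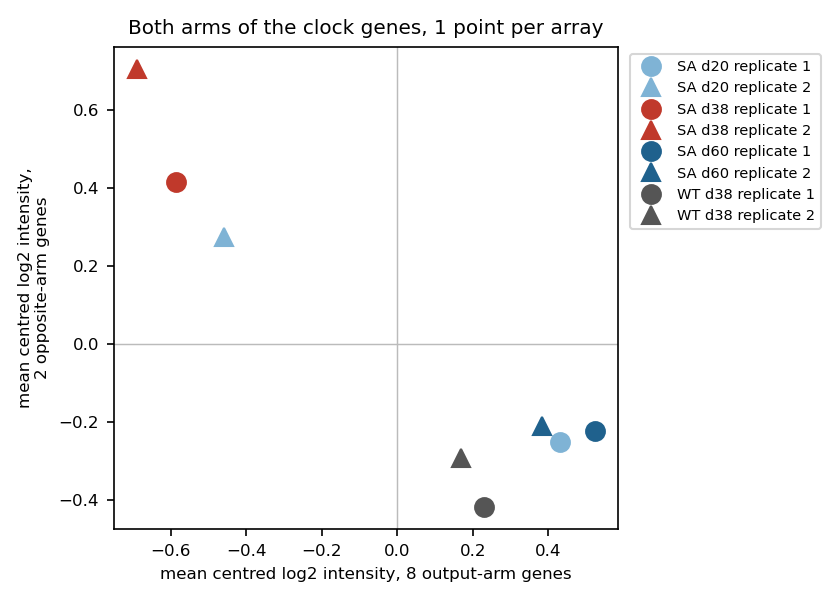
Mean centred log2 intensity of the 8 output-arm genes (x axis) and of the 2 opposite-arm genes (y axis), 1 point per array. Both SA arrays of day 38 and the second of day 20 lie at the upper left, the other 5 arrays at the lower right.

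Between SA and WT tumours at day 38, all 8 output-arm genes had a difference below 0 and both opposite-arm genes one above 0. The log2 difference, SA minus WT, was −1.84 (SE 0.56) for Dbp, −1.54 (SE 0.25) for Nr1d1, −1.10 (SE 0.30) for Nr1d2 and −0.77 (SE 0.17) for Ciart. It was −0.68 (SE 0.33) for Per3, −0.52 (SE 0.32) for Tef, −0.25 (SE 0.38) for Per2 and −0.0019 (SE 0.27) for Per1. These errors draw on the spread within all 4 groups. For every clock gene but Nr1d1 the pair of day 20, which is outside this comparison, lay widest apart. The Per1 difference was far smaller than its error. Nfil3 differed by 1.18 (SE 0.25) and Arntl by 0.65 (SE 0.19). The output arm had a median of −0.73, beside −0.024 over all genes tested, and its groups did not overlap in 7 of 8 genes, beside 30.1% of all genes lower in SA without overlap. Both opposite-arm genes were higher without overlap, beside 24.1%. After Benjamini-Hochberg adjustment over all genes limma called 0 of the 10 clock genes, beside 0.06% of all genes (0.0343% higher, 0.0257% lower), and 6 of the 10 had an unadjusted p under 0.05, beside 14.1%. Since these arrays chose the genes, nothing is read from these counts. With either SA array of day 20 left out, Dbp was the 1 clock gene called, beside 0.36% of all genes in that fit. Skeletal muscle markers, 15 of 15 measured and higher in SA, summed to 364607 to 557330 in SA and 92009 to 102447 in WT, and limma called 0 of them. Adipocyte markers, 9 of 12 measured and all 9 higher with 1 called, summed to 112598 to 121091 in SA and 29989 to 31195 in WT. All 10 melanocyte markers and all 6 measured hair follicle markers had a higher group mean in SA as well, with 0 called. The hair follicle sums overlapped, at 41631 to 160005 in SA and 55111 to 64430 in WT. All 3 erythroid and all 4 T cell markers measured were higher too. Fibroblast markers went the other way, with 6 of 7 lower in SA and 1 higher (median −0.72). All 3 measured Schwann markers were lower as well (median −0.72). Keratinocyte, macrophage and endothelial markers were mixed, and limma called 0 in each of these lists. The part of these markers in the clock gene differences was not tested.

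From day 20 to day 38 in SA tumours, Nr1d1 differed by −2.24 (SE 0.25), Dbp by −1.56 (SE 0.56), Ciart by −1.13 (SE 0.17) and Nr1d2 by −0.70 (SE 0.30), day 38 minus day 20. Their groups did not overlap, which held for 4 of 8 output-arm genes on the lower side, beside 19.4% of all genes. Per2 differed by 0.99 (SE 0.38) the other way, with no overlap either, beside 18.7% of all genes on the higher side. Tef (−0.21), Per1 (−0.10) and Per3 (−0.054) overlapped. Nfil3 differed by 0.97 (SE 0.25) and Arntl by 0.13 (SE 0.19). The median of the output arm was −0.46, but it was 0.0022 without the first SA array of day 20 and −0.92 without the second. Limma called 0 of the 10, beside 0.0172% of all genes, and 5 had an unadjusted p under 0.05, beside 10.7%. Dbp was called without the second SA array of day 20, where its difference was −2.52 and 0.334% of all genes were called. The 2 arrays of day 20 parted in melanocyte markers as given above, and the part of that gap in these differences was not tested.

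From day 38 to day 60 in SA tumours, all 8 output-arm genes had a difference above 0 and both opposite-arm genes one below 0. Nr1d1 differed by 2.55 (SE 0.25), Dbp by 2.03 (SE 0.56), Ciart by 1.08 (SE 0.17), Nr1d2 by 0.90 (SE 0.30) and Tef by 0.85 (SE 0.32), day 60 minus day 38. Per1 differed by 0.68 (SE 0.27), Per2 by 0.44 (SE 0.38) and Per3 by 0.22 (SE 0.33), of which only Per3 overlapped. Nfil3 differed by −0.84 (SE 0.25) and Arntl by −0.71 (SE 0.19). The output arm had a median of 0.88, beside 0.037 over all genes, and 7 of 8 genes did not overlap on the higher side, beside 32.9% of all genes. Both opposite-arm genes were lower without overlap, beside 25%. An unadjusted p under 0.05 was found for 8 of the 10, beside 26.1%. Limma with Benjamini-Hochberg adjustment called Nr1d1 and Ciart, 2 of 8, beside 0.712% of all genes on the higher side, and neither opposite-arm gene, beside 0.377% on the lower side and 1.09% in either direction. Nothing is read from these counts either. With either SA array of day 20 left out the count was 6 of the 10, with Dbp, Nr1d2, Per1 and Arntl added, beside 7.98% of all genes in that fit. Without any 1 of the other 6 arrays it was 0. Hair follicle markers, 6 of 10 measured and all 6 lower at day 60, summed to 6277 to 13187 at day 60 and 41631 to 160005 at day 38, and muscle markers, 14 of 15 lower, to 37316 to 269423 at day 60 and 364607 to 557330 at day 38, with 0 called in both lists. Adipocyte markers, all 9 lower with 2 called, had a median difference of −1.01, and melanocyte markers, all 10 higher with 1 called, one of 2.05. The part of these markers in the clock gene differences was not tested.

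The day 60 tumours of SA mice were also set against those of day 20. Per2 differed by 1.43 (SE 0.38), Tef by 0.64 (SE 0.32) and Per1 by 0.58 (SE 0.27), day 60 minus day 20, and these 3 did not overlap, beside 30% of all genes on the higher side. Dbp (0.48, SE 0.56), Nr1d1 (0.31, SE 0.25), Nr1d2 (0.20, SE 0.30), Per3 (0.17, SE 0.33) and Ciart (−0.054, SE 0.17) all overlapped. Arntl differed by −0.59 (SE 0.19) without overlap, beside 22.7% on the lower side, and Nfil3 by 0.13 (SE 0.25). The median of the output arm was 0.39; it was 0.83 without the first SA array of day 20 and −0.025 without the second. Limma called 0 of the 10, beside 0% of all genes, and 2 had an unadjusted p under 0.05, beside 23.5%. In the same comparison all 15 muscle markers (median −2.41), all 6 hair follicle markers (−2.10) and all 9 adipocyte markers (−0.49) were lower and all 10 melanocyte markers (2.28) higher, with 0 called, and their part was not tested. The 3 comparisons of SA tumours share their arrays and are no separate evidence for one another.

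**Figure D4:**
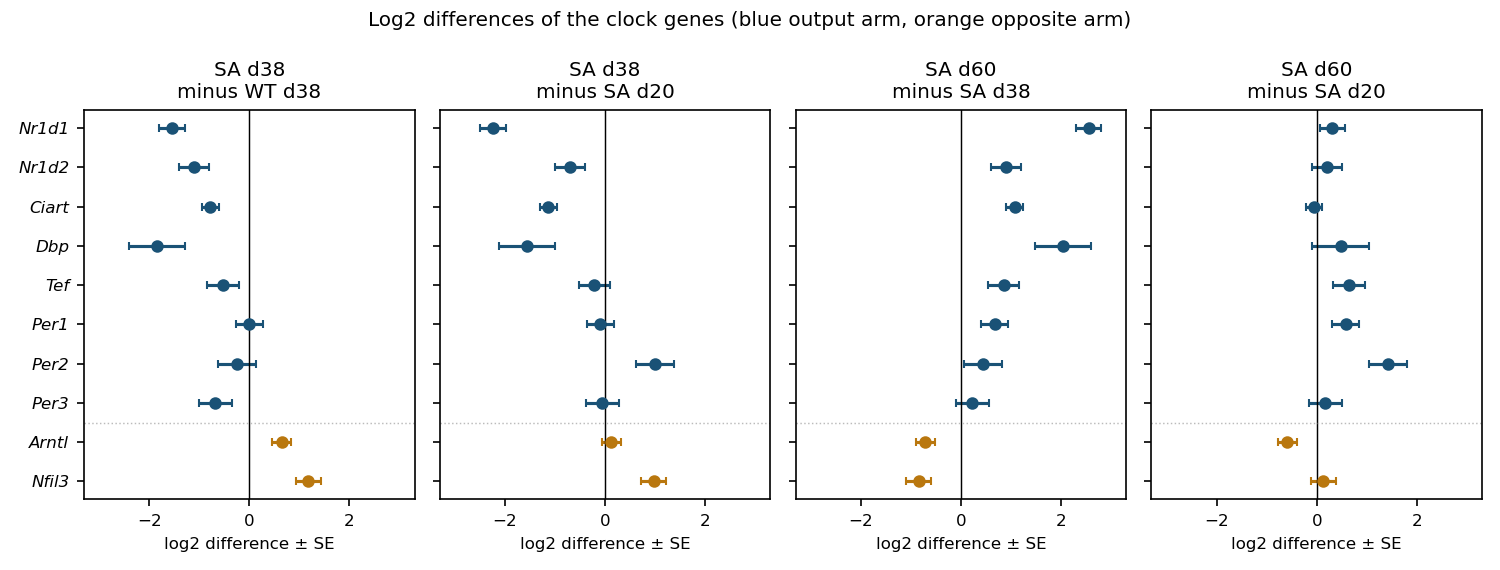
Log2 difference with its standard error (x axis) for each of the 10 genes in the 4 comparisons, first-named group minus second; blue points are the output arm and orange points the opposite arm. The blue points lie at or left of 0 in SA minus WT at day 38 and right of 0 in SA at day 60 minus day 38, with the orange points on the other side.

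The rest of the clock pathway was followed through a list of 37 further symbols, of which 32 were on the array and 22 passed the filter, 14 of the core loop and its regulators and 8 known outputs. Cry1, Npas2, Hlf and Bhlhe41 were among those below the filter. Between SA and WT at day 38, limma called 0 of the 22, 2 had an unadjusted p under 0.05, beside 14.1% of all genes, and 12 had a difference above 0 and 10 below, with a median of 0.013 beside −0.024 over all genes. Clock, the partner of BMAL1, read 12.36 and 12.14 in SA and 12.11 and 12.34 in WT. Cry2, which represses with the PER proteins, read 9.09 and 8.72 in SA and 8.95 and 9.19 in WT. Neither of these core genes parted the groups. The widest differences were those of Pdk4, a brake on pyruvate oxidation that is abundant in muscle (2.44, SE 0.46, adjusted p = 0.205), Usp2, a deubiquitinase (0.84, SE 0.32, adjusted p = 0.319), and Tsc22d3, which encodes the glucocorticoid-induced leucine zipper (0.67, SE 0.33, adjusted p = 0.407).

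From day 20 to day 38 in SA limma again called 0 of the 22, with 3 at an unadjusted p under 0.05, beside 10.7% of all genes. Rora, an activator at the RORE and so a counterpart of the REV-ERBs, read 11.52 and 11.26 at day 38 and 12.61 and 12.28 at day 20, a difference of −1.06 (SE 0.19, adjusted p = 0.167). Rorb, a related receptor, differed by −0.65 (adjusted p = 0.489), and Pdk4 by 0.65 (adjusted p = 0.646). From day 38 to day 60, limma called 1 of the 22 higher and 1 lower, beside 0.712% and 0.377% of all genes. Gsk3b, a kinase that phosphorylates several clock proteins, rose by 0.99 (SE 0.15, adjusted p = 0.0447), with 10.04 and 10.08 at day 60 and 9.07 and 9.06 at day 38. Pdk4 fell by 3.23 (SE 0.46, adjusted p = 0.0445), with 11.05 and 9.72 at day 60 and 13.86 and 13.37 at day 38. Neither call held without any 1 of the WT arrays, the SA arrays of day 38 or those of day 60, where 0 of the 22 were called, and with either SA array of day 20 left out 4 were called, beside 7.98% of all genes. Of those not called, Rorb differed by 1.49 (SE 0.30, adjusted p = 0.0583) and Klf10, a zinc finger repressor, by 0.99 (SE 0.26, adjusted p = 0.0836). An unadjusted p under 0.05 was found for 8 of the 22, beside 26.1% of all genes. In all, 16 of the 22 had a difference above 0, with a median of 0.33 beside 0.037 over all genes. Between day 60 and day 20 limma called 0, with 6 at an unadjusted p under 0.05, beside 23.5% of all genes, and Pdk4 (−2.58, adjusted p = 0.0913), Bhlhe40, a repressor at E-boxes (1.15, adjusted p = 0.122), and Rorb (0.84, adjusted p = 0.167) were widest apart. Without the second SA array of day 20 the calls here were 3, Bhlhe40, Gsk3b and Pdk4, beside 7.85% of all genes.

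**Figure D5:**
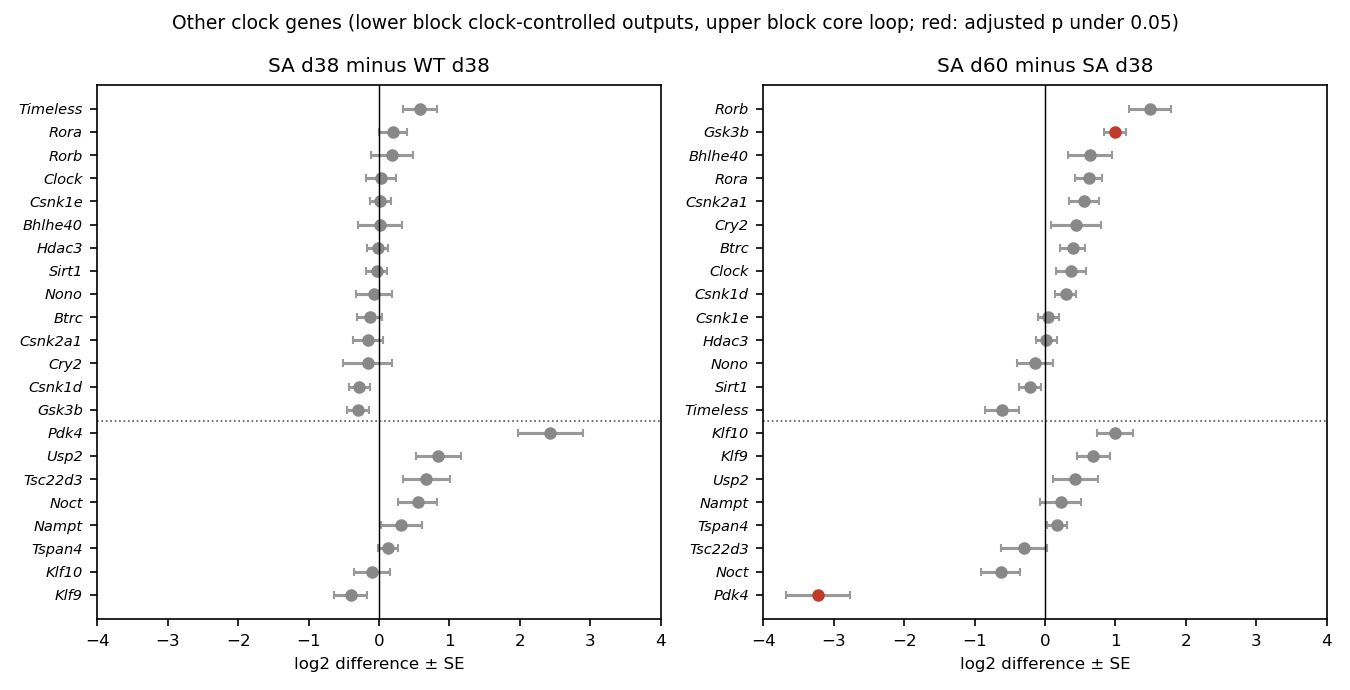
Log2 difference with its standard error (x axis) for the 22 other clock genes in SA minus WT at day 38 and in SA at day 60 minus day 38; red points have an adjusted p under 0.05 over all genes. At day 38 no point is red, and in the later comparison Gsk3b and Pdk4 are.

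Likeness to the output arm was measured as the Pearson correlation, over the 8 arrays, of each of 11651 other genes with the mean centred value of the 8 output-arm genes. With so many genes and so few arrays high values arise in any case, and the arrays share tissue make-up and sex, so these are names only. The most alike were Cpne2 (r = 0.968), Saa1 (0.968), Nr1h4 (0.956), Tmem214 (0.955), Cir1 (0.952), Ccl3 (0.949), Atp2a2 (0.946), Dlgap4 (0.942), Anapc11 (0.938) and Tgfb2 (0.935). Nr1h4, which encodes the bile acid receptor FXR, had the widest range of these, and read 7.89 and 7.68 in SA at day 38 against 9.18 and 9.10 in WT. Its 2 lowest arrays were those of SA at day 38. The most opposed were Nop56 (r = −0.955), Pif1 (−0.955), Zfp82 (−0.931), Ppp2r1b (−0.930) and Mcm10 (−0.926). Mcm10, a DNA replication factor, read 10.56 and 11.38 in SA at day 38 against 9.85 and 10.01 in WT. Of the 22 other clock genes, Klf9 had the highest value (0.859) and Timeless, whose mammalian product serves DNA replication, the lowest (−0.865).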

How the data were processed

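RNA of 8 whole melanomas was measured on Illumina bead arrays, 1 biotin-labelled sample per array. The deposited intensities were on a linear scale from 183.9 to 71767; all arrays shared nearly 1 distribution and no value neared 0, the mark of quantile normalization with background left in by the authors. The submitters' processing notes list GenomeStudio 1.8. A table of unnormalized signals was not used, since no label ties its 16 columns to samples. Background was removed by normexp in limma (offset 16), and values were put on the log2 scale. A probe was kept above the 40th percentile of mean log2 values, and the brightest stood for its gene. Platform annotation gave 23978 probes 1 symbol, 0 several and 1719 none. Limma 3.58.1 in R 4.3.3 fitted 1 mean for each of the 4 groups to all 8 arrays (residual degrees of freedom 4, prior 2.49). A call needed a p under 0.05 after Benjamini-Hochberg adjustment across the 11661 measurements. Precision is limited by the few arrays.

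The labels conflict (Ifnar1SA as genotype, Ifnar1-/- in the treatment protocol), and the genotype was used; 1 item of the mouse model is not reported here. The clock genes and the lists were chosen with earlier results of these data known. Genes were named by a rule: all 10 clock genes; of the other clock and glucocorticoid lists, called genes and the 3 widest differences in each comparison; the 10 most and 5 least like the output arm; and Xist and Eif2s3y. Clock, Cry2, Klf9, Timeless and the genes below the filter were named beyond it. The alternatives were other offsets, filters, probe rules, normalization, fits on the compared arrays, the replicate block, a trended prior and leaving out each array.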

Additional observations from a re-analysis of the deposited data

How the results depend on the processing

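The direction of Dbp, Nr1d1, Nr1d2, Ciart, Arntl and Nfil3 in SA against WT at day 38 and in day 60 against day 38 was the same under all alternatives run. Of 716 differences of single clock genes recomputed, 47 moved by more than the spread between replicates and 18 changed sign. Many of the rest could not move. Other filters, testing every probe, fits on the compared arrays, the block and a trended prior leave a difference unchanged. So does leaving out an array outside the comparison. The probe mean left Dbp, Arntl and Nfil3, with 1 probe each, and Nr1d2, with 1 probe past the filter, unchanged. Quantile normalization could hardly move a value, since the arrays already shared nearly 1 distribution. Another offset or leaving out a compared array could change sizes. Neither could reverse the shared direction, since the groups of Dbp, Nr1d1, Nr1d2, Ciart, Arntl and Nfil3 did not overlap. That direction thus rests on the run without background correction, and for Nr1d1 and Ciart on the probe mean. For Tef at day 38 the mean of its probes gave 0.051. Counts of calls moved most. With offset 50, 10 genes were called from day 20 to day 38. Without background correction the counts were 4 (SA against WT), 21 (day 38 against 20) and 365 (day 60 against 38). The 60th percentile filter gave 15 and 332 in these time comparisons, and 1 clock gene at day 38 against 20. With no filter, day 60 against 38 gave 3 genes, 0 of the 10 and 0 of the 22 other clock genes, and with every probe tested 269 probes. The mean of probes gave 1 of the 10 there. Fits on the compared arrays alone called 36 genes, 1 of the 10 and 1 of the 22 in SA against WT, 1 gene at day 38 against 20, and 44 genes, 1 of the 10 and 0 of the 22 at day 60 against 38. A trended prior gave 14 genes at day 38 against 20. At day 60 against 38 it gave 1 of the 10 and 1 of the 22, where the main fit gave 2 and 2. No count over all genes stands beside these here. The cause was not tested, and nothing is read from the counts of clock genes in these fits.

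With the replicate number as a block, 1 gene was called in each of SA against WT, day 38 against 20 and day 60 against 38, and in the last 0 of the 10 and 0 of the 22 clock genes. The labels tie the numbers to nothing shared, and the replicate differences of the groups correlated between −0.196 and 0.107. Such correlations cannot show whether samples of the same number shared anything else.

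Leaving out each array in turn, where a lone array is assumed to vary like the other groups, gave 1 to 42 genes in SA against WT, 1 to 46 at day 38 against 20, 1 to 930 at day 60 against 38 and 0 to 915 at day 60 against 20. Of the 10 clock genes it called 0 to 1, 0 to 1, 0 to 6 and 0 in that order, and of the 22 others 0 to 4 at day 60 against 38 and 0 to 3 at day 60 against 20. The median of the output arm ranged from −0.92 to 0.0022 at day 38 against 20 and from −0.025 to 0.83 at day 60 against 20, and that of the opposite arm from 0.29 to 0.81 and from −0.49 to 0.035. The extremes came without 1 or the other SA array of day 20.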

Other observations

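Glucocorticoids are hormones that also act on Per1 and other clock genes. A list of genes known to be induced by them shared Tsc22d3 and Klf9 with the other clock genes above. Of its 12 genes, 10 were measured. Limma called 0 of them in any of the 4 comparisons, with 1, 0, 3 and 0 at an unadjusted p under 0.05 in SA against WT at day 38, day 38 against 20, day 60 against 38 and day 60 against 20. Of all genes, 14.1%, 10.7%, 26.1% and 23.5% had such a p in these comparisons. Between SA and WT at day 38, 8 of 10 had a difference above 0, with a median of 0.27 beside −0.024 over all genes. Dusp1, a MAP kinase phosphatase, differed by 0.76 (SE 0.35, adjusted p = 0.382), Tsc22d3 by 0.67 and Errfi1, a feedback inhibitor of the EGF receptor, by 0.65 (adjusted p = 0.473). From day 20 to day 38, Mt2 (−0.45), Dusp1 (−0.39) and Klf9 (−0.28) were widest apart, and from day 38 to day 60 Mt2, a metallothionein (1.15, adjusted p = 0.173), Klf9 (0.69, adjusted p = 0.128) and Errfi1 (−0.63, adjusted p = 0.327). Between day 60 and day 20 they were Mt2 (0.70), Dusp1 (−0.51) and Errfi1 (−0.46).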
